A study of Homo sapiens with 12 samples.

Results

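The TGF-beta, BMP and activin genes described here are 49 listed symbols of the 43236 in the count tables, made up of 16 ligand genes (*BMP1*, a protease, among them), 10 receptors, 8 SMADs, 10 antagonists and latency proteins and 5 target genes. The list was drawn up by symbol, with earlier results of these data known, so its counts of calls are a description of these genes. RNA was sequenced from MNNG/HOS, a human osteosarcoma cell line (HOS-MNNG in the labels), that received either the solvent DMSO or NXP800 at 300 nM for 6 h or 24 h, with 3 libraries in each of the 4 groups. NXP800 is an oral small molecule that the study describes as an activator of GCN2, a kinase of the integrated stress response. Each comparison set NXP800 against DMSO of the same time point, and the change of the response from 6 h to 24 h was tested as well. All values are from 1 cell line, and the labels do not say whether the 3 libraries of a group came from separate cultures, so p-values measure the spread between these libraries, which may be technical.

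Ligands of this family bind pairs of type I and type II receptor kinases on the cell surface, and the type I receptor then phosphorylates a SMAD protein. TGF-beta and activins act mainly through SMAD2 and SMAD3, BMPs through SMAD1, SMAD5 and SMAD9, and both branches share SMAD4, while SMAD6 and SMAD7 inhibit the receptors. Outside the cell, follistatins, gremlin, noggin and chordin bind ligands and keep them from receptors, and LTBP proteins hold TGF-beta in a latent form in the matrix. In bone, BMPs are known for driving osteoblast differentiation, and the matrix stores large amounts of latent TGF-beta.

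Each library held 30810614 to 31947656 counts on genes. Reads on no annotated gene made up 6.66 to 8.14% of the 6 h libraries and 2.73 to 3.67% of the 24 h libraries, and the labels name no batch. Reads aligned to more than 1 place made up 1.86 to 1.99% of the 6 h and 2.96 to 3.37% of the 24 h libraries. The 6 h and 24 h libraries thus differ in these shares as well as in time, which cannot be told apart. That limit holds for levels in DMSO cells and for the change of the response from 6 h to 24 h. Levels are given as CPM, a gene's counts per 1000000 counts of its library, scaled by TMM, edgeR's correction for RNA composition. A count is a share of its library, so less RNA of a gene per cell and more RNA of other genes cannot be told apart. Of 9 osteoblast-lineage markers, *RUNX2*, *COL1A1*, *SPARC* and *SPP1* were above 1 CPM in every library, while *SP7*, *ALPL*, *COL1A2*, *IBSP* and *BGLAP*, markers of committed or mature osteoblasts and of their matrix, did not exceed 0.387 CPM in any library. The summed level of the 9 markers was 802 to 977 CPM (DMSO) and 544 to 636 CPM (NXP800) at 6 h, and 840 to 1020 CPM (DMSO) and 381 to 482 CPM (NXP800) at 24 h. *SPARC* and *COL1A1* make up most of that sum and had lower medians with NXP800, whereas *RUNX2* had higher ones, at 37.3 against 23.2 CPM at 6 h and 31.5 against 25.8 CPM at 24 h. The 5 epithelial markers, of which *CDH1* and *KRT19* were at or near 0, summed to 1320 to 1560 CPM and 1230 to 1380 CPM at 6 h and to 1630 to 1670 CPM and 1120 to 1300 CPM at 24 h, in the same order, and *EPCAM* among them went the other way at 24 h, with medians of 5.39 CPM in DMSO and 10.04 CPM in NXP800 cells. The part of these markers in the results was not tested. The 6 haematopoietic markers summed to at most 3.21 CPM and the 4 endothelial markers to at most 2.1 CPM in any library.

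Of the 49 genes, 44 passed the filter on low counts and were tested among 15979 genes. The 5 that did not pass were *BMP2* with 1 to 15 counts per library, *BMP8A* with 0 to 9, *GDF5* with 0 to 5, *INHA* with 1 to 9 and *CHRD* with 0 to 5. At 6 h, 18 genes rose and 17 fell with NXP800 at an adjusted p below 0.05, which is 40.9% and 38.6% of the tested members, against 25% and 27.8% of all tested genes. Changes over 2-fold (a log2 fold change beyond 1 in size) were called for 10 members at 6 h, 3 up and 7 down, or 22.7% against 11.2% of all genes. At 24 h, 15 rose and 17 fell, or 34.1% and 38.6% against 27.5% and 28.6%. A total of 13 members passed 2-fold at 24 h, 4 up and 9 down, or 29.5% against 14% of all genes. The median log2 fold change of the members was 0.056 at 6 h and -0.11 at 24 h, beside -0.046 and -0.0033 over all genes, while the median size of the change was 0.75 and 0.55, beside 0.34 and 0.38. The members thus moved both ways in near equal numbers. A group of 14, or 31.8% of those tested against 18.5% of all genes, fell at both time points (*TGFB1*, *TGFB3*, *BMP4*, *GDF11*, *INHBB*, *TGFBR1*, *TGFBR3*, *BMPR1A*, *SMAD6*, *FSTL1*, *BAMBI*, *LTBP2*, *ID2* and *ID3*). Another 11, or 25% against 16.5%, rose at both (*BMP6*, *BMPR1B*, *ACVR1*, *ACVR2B*, *SMAD1*, *SMAD2*, *SMAD5*, *FSTL3*, *NOG*, *LTBP1* and *SKIL*). Only *TGFB2* and *TGFBR2*, 2 of the 44 or 4.55% against 1.1%, rose at 6 h and fell at 24 h.

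**Figure D1:**
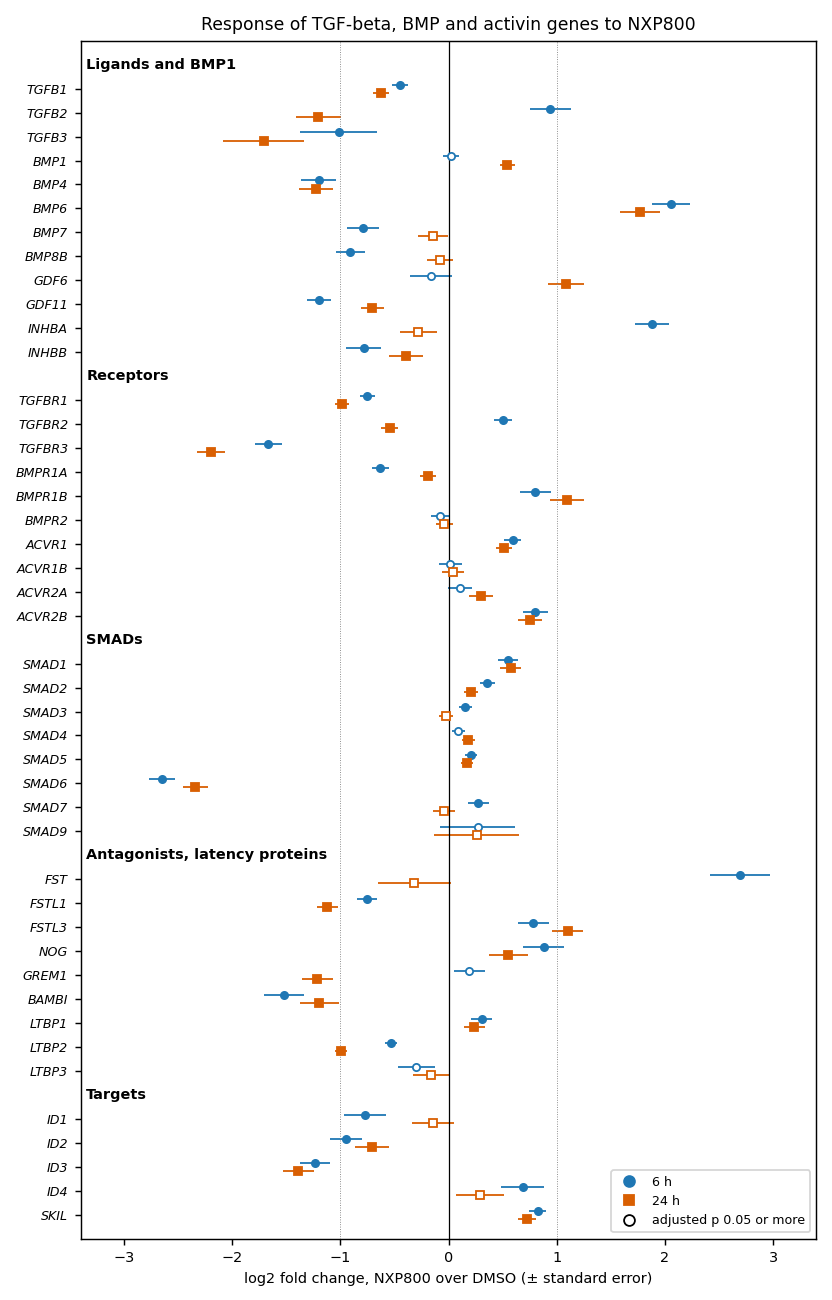
Log2 fold change of NXP800 over DMSO for the 44 tested genes, grouped by role, at 6 h (circles) and 24 h (squares), with bars of 1 standard error from edgeR's fit and open symbols for an adjusted p of 0.05 or more. *SMAD6* and *TGFBR3* lie furthest to the left at both times, *BMP6* lies to the right at both times, and the 6 h and 24 h symbols of *FST*, *INHBA* and *TGFB2* stand on different sides of 0.

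To set genes beside each other, the mean CPM was divided by the length in kb of the gene's MANE transcript, the reference transcript of its main product. Counts are per gene, and which transcripts the cells express was not tested, so a MANE transcript longer than those expressed lowers this value. For *SMAD2*, with a MANE length of 34.6 kb, 55.0 CPM in DMSO cells at 6 h became 1.59 CPM per kb. In DMSO cells at 6 h, 12 of the 44 tested members reached 10 CPM per kb and 5 were under 1. The most abundant per length was *ID3* at 128 ± 8.43 CPM per kb (SD, n = 3), followed by *TGFB1* at 83.7 ± 2.86 and *ID1* at 78.6 ± 11.5, and the last pair did not differ beyond their spread. At 24 h *TGFB1* stood first at 117 ± 1.39 and *ID3* at 107 ± 16.8, within their spread. *TGFBR2* at 34.5 ± 2.03 CPM per kb was the most abundant receptor, with *FSTL1*, a secreted glycoprotein, close beside it at 33.2 ± 0.55. At the low end stood *GDF6* at 0.339 ± 0.055, *SMAD9* at 0.222 ± 0.045 and *TGFB3* at 0.182 ± 0.028 CPM per kb.

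**Figure D2:**
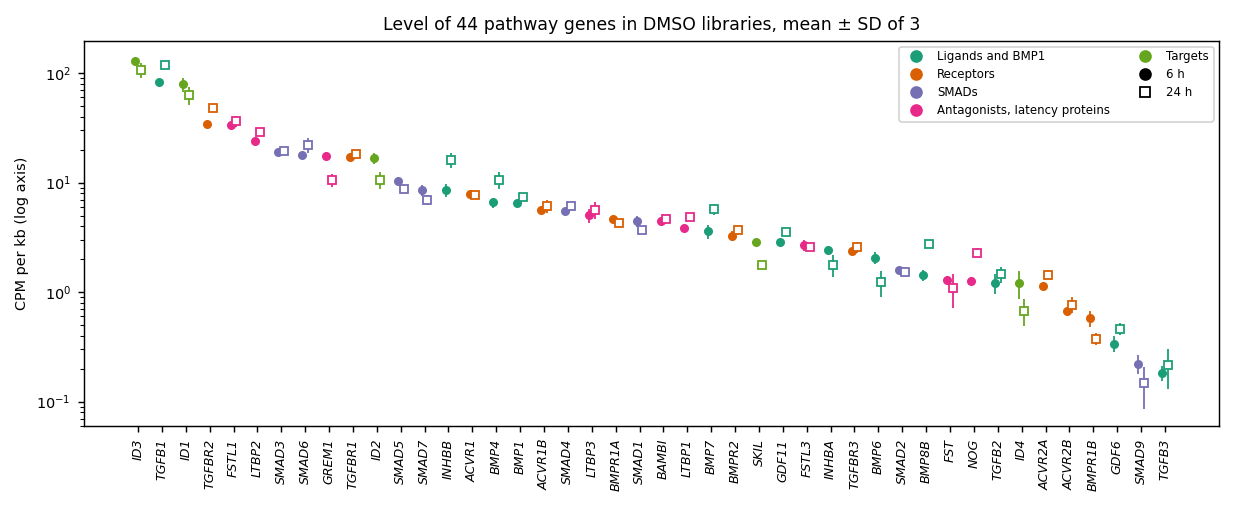
Mean CPM per kb of transcript (log axis) of the 44 tested genes in DMSO cells at 6 h (filled circles) and 24 h (open squares), coloured by role, with bars of 1 SD over 3 libraries, ordered by the 6 h level. Levels run from 128 for *ID3* to 0.182 for *TGFB3*, and the target and ligand groups each hold genes near both ends.

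The promoters of the 4 genes with the largest fold changes at either time point are shown because their transcripts moved furthest and in both directions: *FST* (up at 6 h), *BMP6* (up at both times), *SMAD6* and *TGFBR3* (down at both times). Each is the 250 bases before the transcription start in RefSeq on GRCh38.p14, written 5′ to 3′ on the gene's strand: *FST* at chr5:53480379-53480628 (plus strand), *SMAD6* at chr15:66701986-66702235 (plus), *TGFBR3* at chr1:91886152-91886401 (minus) and *BMP6* at chr6:7725849-7726098 (plus). The *TGFBR3* start is 1 inside the annotated gene, which runs on to position 91906002. Capitals mark the only match found in these 4 sequences.
FST: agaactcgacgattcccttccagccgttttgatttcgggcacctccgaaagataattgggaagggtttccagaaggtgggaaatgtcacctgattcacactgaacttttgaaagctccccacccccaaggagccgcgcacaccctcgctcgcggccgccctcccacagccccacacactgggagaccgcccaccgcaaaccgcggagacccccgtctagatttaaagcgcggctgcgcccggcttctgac
SMAD6: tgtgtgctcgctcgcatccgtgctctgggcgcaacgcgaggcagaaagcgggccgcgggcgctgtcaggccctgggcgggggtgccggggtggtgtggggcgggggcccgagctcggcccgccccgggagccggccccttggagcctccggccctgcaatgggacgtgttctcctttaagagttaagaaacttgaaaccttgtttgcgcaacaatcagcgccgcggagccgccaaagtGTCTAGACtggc
TGFBR3: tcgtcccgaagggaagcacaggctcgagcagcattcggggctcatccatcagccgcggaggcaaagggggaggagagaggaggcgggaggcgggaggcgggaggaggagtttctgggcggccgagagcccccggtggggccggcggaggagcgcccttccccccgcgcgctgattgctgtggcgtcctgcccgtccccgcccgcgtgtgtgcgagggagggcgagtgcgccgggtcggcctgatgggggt
BMP6: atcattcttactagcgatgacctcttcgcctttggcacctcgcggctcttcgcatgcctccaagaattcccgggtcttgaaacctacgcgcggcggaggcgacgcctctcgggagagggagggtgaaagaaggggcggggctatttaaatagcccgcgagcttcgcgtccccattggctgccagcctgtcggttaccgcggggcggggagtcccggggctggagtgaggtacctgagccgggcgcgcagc

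The capitals in the *SMAD6* promoter spell GTCTAGAC, a palindrome of the SMAD box, which was added to the search after these promoters had been seen and is present in 64 of 35116 promoters of this table (0.182%). The table held 75 promoters for 44 of the 49 members. Another 5 motifs were searched on both strands, with N for any base, and none was in the 4 sequences above. The C/EBP-ATF motif TGATGNAA was in 0 of the 75 member promoters and in 3.14% of all promoters. The CRE, TGACGTCA, was in 2 member promoters, of *LTBP1* and *SKIL*, or 2.67% against 1.65%. The SMAD motif CAGACA was in 13 member promoters, or 17.3% against 13.6%. The GC-rich BMP SMAD motif GGCGCC was in 19, or 25.3% against 16.4%. The heat shock motif GAANNTTC was in 4, of *TGFB3*, *SMAD1*, *SMAD5* and *ID1*, or 5.33% against 5.78%. These matches are letters in a window and were not tested as binding sites.

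Among the ligand genes, the BMPs moved in different directions and the TGF-beta ligands were lower at 24 h. Of the 12 that were tested, 3 rose and 7 fell at 6 h, or 25% and 58.3% against 25% and 27.8% of all genes, and 3 rose and 6 fell at 24 h, or 25% and 50% against 27.5% and 28.6%. *TGFB1* encodes the main TGF-beta of bone matrix and is at chr19:41330323-41353922 (minus strand). Its CPM was 239.6, 234 and 224 in DMSO libraries and 174, 175 and 163 with NXP800 at 6 h, and 323, 330.4 and 327 against 224, 184 and 227 at 24 h. All NXP800 libraries were below all DMSO libraries at both times. *TGFB1* fell by 0.45 ± 0.073 on the log2 scale at 6 h (SE of the fit here and below, edgeR adjusted p = 8.38e-05) and by 0.63 ± 0.073 at 24 h (adjusted p = 2.09e-06).

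*TGFB2*, a second TGF-beta ligand (chr1:218345336-218444619, plus strand), was at 8.81, 6.46 and 6.08 CPM in DMSO and 15.8, 15.3 and 9.86 CPM in NXP800 cells at 6 h. At 24 h the values were 6.82, 9.65 and 9.1 CPM in DMSO and 3.3, 3.32 and 4.47 CPM in NXP800 cells. NXP800 libraries were thus all above DMSO at 6 h, the third NXP800 library least, and all below it at 24 h. The gene was 1.92-fold higher at 6 h (log2 fold change 0.94 ± 0.19, edgeR adjusted p = 0.000557) and 2.3-fold lower at 24 h (-1.20 ± 0.21, adjusted p = 0.000114). Exons of other genes, *TGFB2-AS1* and *TGFB2-OT1*, cover 34.2% of its exon sequence in GENCODE, and how strand was used in counting is not given in the sources used here. *TGFB3*, of lowest level among the tested ligands, had 0.665, 0.694 and 0.516 CPM in DMSO and 0.276, 0.275 and 0.368 CPM in NXP800 libraries at 6 h, and 0.736, 1.04 and 0.446 against 0.198, 0.157 and 0.319 CPM at 24 h. The groups did not overlap at either time. It was 2.02-fold lower at 6 h (log2 -1.02 ± 0.36, edgeR adjusted p = 0.0244) and 3.27-fold lower at 24 h (-1.71 ± 0.37, adjusted p = 0.00102). The 6 h call for *TGFB3* was lost when replicate 1 or 2 of either group was left out, with log2 fold changes of -0.97 and -0.94 without the DMSO libraries and -0.95 and -0.94 without the NXP800 libraries, and it had an adjusted p of 0.0875 with DESeq2.

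*BMP6*, a BMP that also regulates hepcidin in the liver, rose most among the ligands at both times. It was at 8.87, 7.13 and 7.44 CPM in DMSO cells and at 29.4, 36.6 and 31.4 CPM with NXP800 at 6 h. By 24 h it was at 5.55, 3.23 and 5.22 CPM in DMSO and 19.7, 15.5 and 12.6 CPM in NXP800 cells. Every NXP800 library was above every DMSO library of its time. The gene was 4.16-fold higher at 6 h (log2 2.06 ± 0.17, edgeR adjusted p = 7.68e-08) and 3.41-fold higher at 24 h (1.77 ± 0.19, adjusted p = 6.75e-07), and the responses did not differ by the test (difference -0.28 ± 0.25, adjusted p = 0.447).

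*BMP4*, an osteogenic BMP, fell to a like degree at both times. DMSO libraries held 12, 14.3 and 11.9 CPM and NXP800 libraries 5.31, 5.23 and 6.05 CPM at 6 h. At 24 h DMSO libraries held 16.5, 21.4 and 23.3 CPM and NXP800 libraries 8.35, 6.77 and 11.0 CPM. The groups did not overlap at either time. *BMP4* was 2.3-fold lower at 6 h (log2 -1.20 ± 0.16, edgeR adjusted p = 1.48e-05) and 2.34-fold lower at 24 h (-1.23 ± 0.16, adjusted p = 6.02e-06). An unnamed gene overlaps 16.3% of its exon sequence.

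The growth and differentiation factors *GDF11* and *GDF6* took different courses. *GDF11*, which signals through activin receptors, was at 24.0, 25.3 and 25.8 CPM in DMSO and 11.2, 10.4 and 11.1 CPM in NXP800 libraries at 6 h, and at 29.1, 30.2 and 33.6 against 15.9, 18.3 and 22.8 CPM at 24 h. The groups were apart at both times. It was 2.3-fold lower at 6 h (log2 -1.20 ± 0.11, edgeR adjusted p = 1.93e-07) and 1.63-fold lower at 24 h (-0.70 ± 0.11, adjusted p = 3.1e-05). For *GDF6*, a BMP-like ligand known from joints and the skull, DMSO libraries had 1.05, 1.45 and 1.28 CPM and NXP800 libraries 1.07, 1.1 and 1.2 CPM at 6 h. At 24 h these were 1.54, 1.98 and 1.65 CPM and 3.57, 3.7 and 3.73 CPM. The *GDF6* groups overlapped at 6 h and stood apart at 24 h, when all 3 NXP800 libraries were higher. The change at 6 h did not pass the test (log2 -0.16 ± 0.19, edgeR adjusted p = 0.502), and at 24 h the gene was 2.12-fold higher (1.09 ± 0.17, adjusted p = 3.61e-05).

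*INHBA* encodes the subunit of activin A and showed the largest rise at 6 h among ligands after *BMP6*. Its level at 6 h was 14.3, 16.0 and 13.4 CPM in DMSO and 51.2, 67.0 and 43.0 CPM in NXP800 libraries. At 24 h it was 9.27, 9.42 and 13.5 CPM in DMSO and 7.63, 9.75 and 9.06 CPM in NXP800 libraries. All NXP800 libraries were higher at 6 h, and the groups overlapped at 24 h. *INHBA* was 3.69-fold higher at 6 h (log2 1.88 ± 0.16, edgeR adjusted p = 7.22e-08), while the 24 h value of -0.28 ± 0.17 did not pass the test (adjusted p = 0.177) except with the replicate number as a block (-0.27, adjusted p = 0.0322). *INHBB*, the subunit of activin B, fell by 0.78 ± 0.16 at 6 h (edgeR adjusted p = 0.000743) and by 0.39 ± 0.15 at 24 h (adjusted p = 0.0391). That 24 h call for *INHBB* was lost without DMSO replicate 3 (-0.25) and without NXP800 replicate 1 (-0.30) or 2 (-0.30).

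The remaining ligand genes changed at 1 time point only by the test. *BMP7*, an osteogenic BMP, fell by 0.79 ± 0.15 on the log2 scale at 6 h (edgeR adjusted p = 0.000302), with group means of 14.5 and 8.36 CPM, and its 24 h value was -0.14 ± 0.14 (adjusted p = 0.402). *BMP8B* fell by 0.91 ± 0.13 at 6 h (edgeR adjusted p = 2.62e-05), and its 24 h value was -0.08 ± 0.12 (adjusted p = 0.583). Reads of *BMP8B* may be shared with its close paralog *BMP8A*, and summing both changed neither call. *BMP1*, a metalloprotease that cleaves procollagen and the BMP antagonist chordin, rose by 0.54 ± 0.070 at 24 h (edgeR adjusted p = 6.63e-06) and did not pass at 6 h (0.02 ± 0.071, adjusted p = 0.797).

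Of the 10 receptor genes, 4 rose and 3 fell at 6 h, or 40% and 30% against 25% and 27.8% of all genes, and 4 rose and 4 fell at 24 h, or 40% each way against 27.5% and 28.6%. The type I TGF-beta receptor *TGFBR1* was at 110.3, 119.8 and 104 CPM in DMSO and at 63.1, 69.5 and 66 CPM in NXP800 libraries at 6 h. At 24 h the levels were 118, 120.5 and 116 CPM in DMSO and 55.4, 62.6 and 61 CPM in NXP800 libraries. All NXP800 libraries were lower than all DMSO libraries at both times. *TGFBR1* was 1.68-fold lower at 6 h (log2 -0.75 ± 0.067, edgeR adjusted p = 1.59e-07) and 1.98-fold lower at 24 h (-0.99 ± 0.068, adjusted p = 5.53e-09).

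*TGFBR2*, the type II receptor that pairs with it, took the course of *TGFB2*, up at 6 h and down at 24 h. Its level was 154, 166 and 148 CPM in DMSO and 215, 236 and 213 CPM in NXP800 libraries at 6 h. It was 201, 234 and 210.4 CPM in DMSO and 156, 155 and 132 CPM in NXP800 libraries at 24 h. The groups did not overlap at either time and stood in opposite order. The receptor gene was 1.42-fold higher at 6 h (log2 0.50 ± 0.079, edgeR adjusted p = 5.59e-05) and 1.46-fold lower at 24 h (-0.54 ± 0.079, adjusted p = 2.2e-05).

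The coreceptor betaglycan, *TGFBR3*, which presents TGF-beta ligands and binds inhibin, fell most among the receptors. At 6 h it was at 13.7, 16.5 and 15.1 CPM in DMSO and 4.11, 5.51 and 4.64 CPM in NXP800 cells. It was at 17, 17.7 and 14.1 CPM in DMSO and 3.76, 3.42 and 3.45 CPM in NXP800 cells at 24 h. NXP800 libraries were far below DMSO at both times. *TGFBR3* was 3.18-fold lower at 6 h (log2 -1.67 ± 0.13, edgeR adjusted p = 2.45e-08) and 4.58-fold lower at 24 h (-2.20 ± 0.13, adjusted p = 1.21e-09). Of the BMP type I receptors, *BMPR1B* rose from 2.95, 3.85 and 2.86 CPM to 5.16, 6.0 and 5.65 CPM at 6 h and from 1.94, 2.39 and 1.96 CPM to 4.75, 4.36 and 4.31 CPM at 24 h, with no overlap. It was 1.74-fold higher at 6 h (log2 0.80 ± 0.14, edgeR adjusted p = 0.000211) and 2.13-fold higher at 24 h (1.09 ± 0.16, adjusted p = 1.76e-05). Its counterpart *BMPR1A* fell by 0.63 ± 0.077 at 6 h (edgeR adjusted p = 4.3e-06) and by 0.19 ± 0.076 at 24 h (adjusted p = 0.0429). The 24 h call for *BMPR1A* was lost with DESeq2 (adjusted p = 0.0777) and without any 1 of its 6 libraries except DMSO replicate 3, with log2 fold changes of -0.21 to -0.14.

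The remaining receptors, of activins and of BMPs, rose or did not pass the test. *ACVR1*, a type I receptor for BMPs and activins, rose by 0.59 ± 0.075 at 6 h (edgeR adjusted p = 6.72e-06) and 0.51 ± 0.076 at 24 h (adjusted p = 2.76e-05). *ACVR2B*, a type II activin receptor, rose by 0.80 ± 0.11 at 6 h (edgeR adjusted p = 2.01e-05) and 0.75 ± 0.11 at 24 h (adjusted p = 3.15e-05). *ACVR2A* was called at 24 h (log2 0.30 ± 0.11, edgeR adjusted p = 0.0295) and not at 6 h (0.11 ± 0.11, adjusted p = 0.46), and the 24 h call was lost without DMSO replicate 1 (0.28) or 2 (0.25) and without NXP800 replicate 1 (0.25) or 3 (0.26). *BMPR2* and *ACVR1B* passed at neither time, with log2 fold changes between -0.08 and 0.04.

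**Figure D3:**
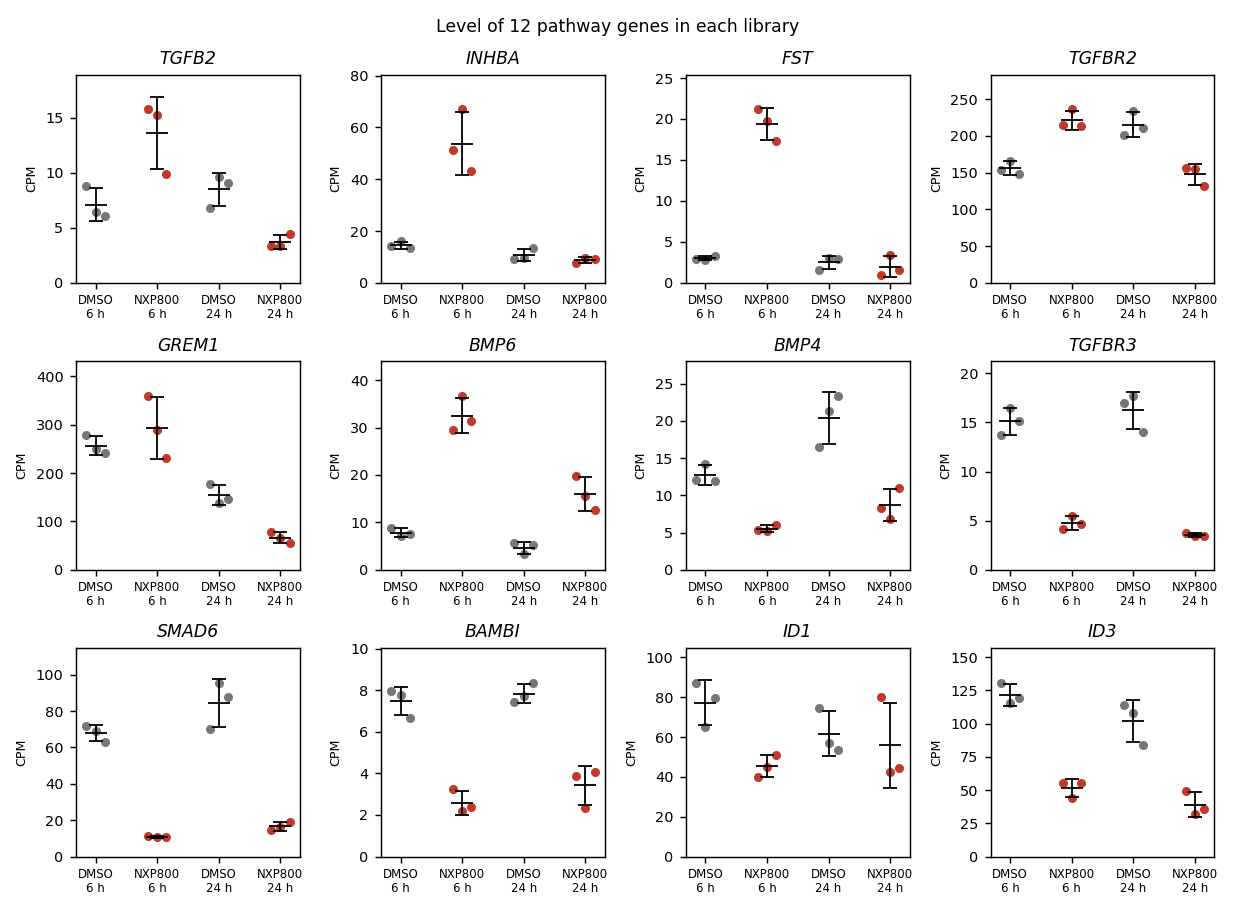
CPM of 12 of the genes in each of the 12 libraries, by group, with the mean and 1 SD of 3 libraries, DMSO in grey and NXP800 in red, each panel on its own axis from 0. *TGFB2* and *TGFBR2* stand above DMSO at 6 h and below it at 24 h, *INHBA* and *FST* stand apart at 6 h and overlap DMSO at 24 h, and *ID1* has 1 NXP800 library at 24 h that is higher than every DMSO library of that time.

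Of the 8 SMAD genes, 5 rose and 1 fell at 6 h, or 62.5% and 12.5% against 25% and 27.8% of all genes, and 4 rose and 1 fell at 24 h, or 50% and 12.5% against 27.5% and 28.6%. The 1 that fell, at both times, was *SMAD6*, an inhibitory SMAD that blocks mainly the BMP branch and a known BMP target. *SMAD6* (chr15:66702236-66782849, plus strand), whose promoter is printed above, was at 71.8, 68.9 and 63.0 CPM in DMSO and at 11.3, 10.6 and 10.5 CPM in NXP800 libraries at 6 h. At 24 h it was at 69.9, 95.5 and 87.6 CPM in DMSO and at 14.3, 16.4 and 19.2 CPM in NXP800 libraries. It was low in all 6 NXP800 libraries and high in all 6 DMSO libraries. The gene was 6.28-fold lower at 6 h (log2 -2.65 ± 0.12, edgeR adjusted p = 1.05e-10) and 5.06-fold lower at 24 h (-2.34 ± 0.11, adjusted p = 1.8e-10). The inhibitory *SMAD7*, which acts on both branches and is a known TGF-beta target, was at 32.0, 26.0 and 27.3 CPM in DMSO and 35.3, 33.0 and 35.1 CPM in NXP800 libraries at 6 h, and at 26.2, 22.5 and 21.4 against 25.8, 20.9 and 21.5 CPM at 24 h. Its groups stood apart at 6 h and overlapped at 24 h. *SMAD7* was 1.21-fold higher at 6 h (log2 0.28 ± 0.099, edgeR adjusted p = 0.0279), and its 24 h value of -0.04 ± 0.10 did not pass (adjusted p = 0.754). The 6 h call for *SMAD7* was lost without DMSO replicate 2 (0.22) or 3 (0.25) and without NXP800 replicate 1 (0.26) or 3 (0.26).

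The SMADs that carry the signal changed by less than 1.5-fold. *SMAD2* was at 56.5, 56.2 and 52.4 CPM in DMSO and 73.2, 70.4 and 68.1 CPM in NXP800 libraries at 6 h, and at 56.7, 49.5 and 52.5 against 63.8, 59.9 and 60.0 CPM at 24 h. NXP800 was higher with no overlap at both times. It was 1.28-fold higher at 6 h (log2 0.36 ± 0.065, edgeR adjusted p = 0.000221) and 1.16-fold higher at 24 h (0.21 ± 0.065, adjusted p = 0.0119), a call lost for *SMAD2* without DMSO replicate 2 (0.16). *SMAD3* had 123, 123 and 120.5 CPM in DMSO and 137, 137 and 135 CPM in NXP800 libraries at 6 h, and 127, 129 and 119.7 against 118, 135 and 116 CPM at 24 h. It was higher in all NXP800 libraries at 6 h and overlapped DMSO at 24 h. The 6 h difference in *SMAD3* was 1.11-fold (log2 0.16 ± 0.062, edgeR adjusted p = 0.0438) and lost its call when any 1 of the 6 libraries was left out (0.15 to 0.16), and the 24 h value was -0.03 ± 0.062 (adjusted p = 0.744).

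*SMAD4*, the common partner, had 49.4, 47.5 and 46.6 CPM in DMSO and 52.9, 50.3 and 49.4 CPM in NXP800 libraries at 6 h. The 24 h values were 54.3, 52.2 and 54.1 CPM in DMSO and 63.4, 58.3 and 60.5 CPM in NXP800 libraries. The highest DMSO and the lowest NXP800 library at 6 h both stood at 49.4 CPM, and the 24 h groups were apart. *SMAD4* did not pass at 6 h (log2 0.09 ± 0.060, edgeR adjusted p = 0.231) and was 1.13-fold higher at 24 h (0.18 ± 0.060, adjusted p = 0.016), a call lost without DMSO replicate 2 (0.16) or NXP800 replicate 1 (0.15). Of the BMP branch, *SMAD1* rose by 0.55 ± 0.093 at 6 h (edgeR adjusted p = 0.000121) and 0.57 ± 0.095 at 24 h (adjusted p = 8e-05). *SMAD5* rose by 0.20 ± 0.056 at 6 h (edgeR adjusted p = 0.00603) and 0.17 ± 0.057 at 24 h (adjusted p = 0.0172), the latter lost without DMSO replicate 3 (0.16) or NXP800 replicate 1 (0.13). *SMAD9*, at 0.351 to 1.6 CPM, passed at neither time, with log2 fold changes of 0.27 ± 0.35 and 0.26 ± 0.39.

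Among the 9 tested antagonists and latency proteins, 4 rose and 3 fell at 6 h, or 44.4% and 33.3% against 25% and 27.8% of all genes, and 3 rose and 4 fell at 24 h, or 33.3% and 44.4% against 27.5% and 28.6%. Follistatin, *FST* (chr5:53480629-53487134, plus strand), a secreted protein that binds activins tightly, had the largest rise of any of the 44 members at 6 h. It was at 2.85, 2.84 and 3.28 CPM in DMSO and 21.2, 19.8 and 17.3 CPM in NXP800 libraries at 6 h. By 24 h *FST* was at 1.51, 2.99 and 2.95 CPM in DMSO and 0.925, 3.45 and 1.56 CPM in NXP800 libraries. All 3 NXP800 libraries stood far above DMSO at 6 h, and at 24 h they lay on both sides of the DMSO libraries. *FST* was 6.48-fold higher at 6 h (log2 2.7 ± 0.28, edgeR adjusted p = 7.2e-07), and its 24 h value of -0.32 ± 0.34 did not pass (adjusted p = 0.44). That 24 h value rests on single libraries, being -0.96 without NXP800 replicate 2 (adjusted p = 0.011) and 0.017 without NXP800 replicate 1. *FST* and *INHBA*, the inhibitor and its ligand, were thus both over 3-fold higher at 6 h and neither passed the test at 24 h.

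Follistatin-like 3, *FSTL3*, which also binds activins, rose at both times. It was at 6.75, 5.83 and 7.41 CPM in DMSO and 13.2, 11.1 and 10.1 CPM in NXP800 libraries at 6 h, and at 6.16, 6.15 and 6.94 against 11.2, 14 and 16.1 CPM at 24 h. The groups did not overlap. *FSTL3* was 1.72-fold higher at 6 h (log2 0.78 ± 0.14, edgeR adjusted p = 0.000231) and 2.15-fold higher at 24 h (1.10 ± 0.14, adjusted p = 7.04e-06). *FSTL1*, a matrix glycoprotein of the same family that binds BMP4, was at 188, 192 and 186 CPM in DMSO and 104, 119.6 and 112 CPM in NXP800 libraries at 6 h, and at 181, 213 and 227 against 80.8, 101 and 103 CPM at 24 h. It was lower in every NXP800 library. *FSTL1* was 1.68-fold lower at 6 h (log2 -0.75 ± 0.094, edgeR adjusted p = 5.66e-06) and 2.17-fold lower at 24 h (-1.12 ± 0.095, adjusted p = 6.09e-08).

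Gremlin, *GREM1* (chr15:32718004-32745106, plus strand), a secreted BMP antagonist, was at 279, 249 and 241 CPM in DMSO and 359, 288 and 232 CPM in NXP800 libraries at 6 h. Its 24 h levels were 178, 138 and 147 CPM in DMSO and 78.8, 64.8 and 55.8 CPM in NXP800 libraries. The groups overlapped at 6 h, since the third NXP800 library was the lowest of the 6, and were apart at 24 h. *GREM1* was 2.32-fold lower at 24 h (log2 -1.21 ± 0.14, edgeR adjusted p = 2.79e-06). Its 6 h value of 0.19 ± 0.14 did not pass (adjusted p = 0.262) but passed with the replicate number as a block (0.17, adjusted p = 0.0316) and without NXP800 replicate 3 (0.34, adjusted p = 0.0462). Noggin, *NOG*, another BMP antagonist, rose by 0.88 ± 0.19 at 6 h (edgeR adjusted p = 0.00113) and by 0.55 ± 0.18 at 24 h (adjusted p = 0.0149), and the 24 h call was lost for *NOG* without NXP800 replicate 2 (0.34). *BAMBI*, a receptor-like protein without a kinase domain that blocks signalling and is a known target of BMP and TGF-beta, had 7.95, 7.76 and 6.68 CPM in DMSO and 3.25, 2.17 and 2.36 CPM in NXP800 libraries at 6 h, and 7.43, 7.73 and 8.34 against 3.86, 2.35 and 4.05 CPM at 24 h. It was lower in all 6 NXP800 libraries. *BAMBI* was 2.87-fold lower at 6 h (log2 -1.52 ± 0.19, edgeR adjusted p = 4.37e-06) and 2.29-fold lower at 24 h (-1.20 ± 0.18, adjusted p = 3.36e-05).

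Of the latency proteins, *LTBP2*, a matrix protein of the LTBP family that does not bind latent TGF-beta itself, fell by 0.53 ± 0.057 at 6 h (edgeR adjusted p = 1.07e-06) and by 0.99 ± 0.057 at 24 h (adjusted p = 9.09e-10). *LTBP1*, which anchors latent TGF-beta, rose by 0.31 ± 0.098 at 6 h (edgeR adjusted p = 0.0155) and by 0.24 ± 0.097 at 24 h (adjusted p = 0.0479). The *LTBP1* calls were each lost without 1 of 3 libraries, at 6 h DMSO replicate 1 (0.26) and NXP800 replicates 2 (0.26) and 3 (0.27), and at 24 h DMSO replicates 1 (0.18) and 2 (0.23) and NXP800 replicate 2 (0.17). *LTBP3* passed at neither time, with -0.30 ± 0.17 at 6 h (edgeR adjusted p = 0.161) and -0.16 ± 0.17 at 24 h (adjusted p = 0.439), although its 6 h groups did not overlap and the 6 h value passed with the replicate block (-0.29, adjusted p = 0.0104).

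The 5 target genes of the list hold the 4 *ID* genes, which encode dominant inhibitors of helix-loop-helix factors and are classical BMP targets, and *SKIL*. At 6 h, 2 rose and 3 fell, or 40% and 60% against 25% and 27.8% of all genes. At 24 h, 1 rose and 2 fell, or 20% and 40% against 27.5% and 28.6%. With only 5 genes these shares are coarse. *ID1* (chr20:31605289-31606510, plus strand) was at 87.1, 65.0 and 79.8 CPM in DMSO and 40.0, 44.7 and 51.1 CPM in NXP800 libraries at 6 h. At 24 h it was at 74.4, 57.0 and 53.6 CPM in DMSO and 80.3, 42.3 and 44.7 CPM in NXP800 libraries. NXP800 was lower throughout at 6 h, whereas at 24 h the first NXP800 library was the highest of the 6 and the other two were the lowest. *ID1* was 1.71-fold lower at 6 h (log2 -0.77 ± 0.19, edgeR adjusted p = 0.00321), and the 24 h value of -0.15 ± 0.19 did not pass (adjusted p = 0.539) but was -0.50 without NXP800 replicate 1 (adjusted p = 0.00799). At 24 h *ID1* was 0.043 without NXP800 replicate 2 and 0.0093 without DMSO replicate 1, neither past the test.

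*ID2* was at 24.2, 22.0 and 19.3 CPM in DMSO and 12.2, 12 and 9.7 CPM in NXP800 libraries at 6 h, and at 16.2, 13.3 and 11.5 against 10.5, 7.12 and 7.56 CPM at 24 h. No NXP800 library reached a DMSO library of its time. It was 1.93-fold lower at 6 h (log2 -0.95 ± 0.15, edgeR adjusted p = 6.1e-05) and 1.63-fold lower at 24 h (-0.71 ± 0.16, adjusted p = 0.0011). *ID3* was at 131, 115 and 119 CPM in DMSO and 55.1, 44.1 and 55.6 CPM in NXP800 libraries at 6 h, and at 114, 108 and 83.9 against 49.5, 31.7 and 35.8 CPM at 24 h. It was lower in every NXP800 library. *ID3* was 2.36-fold lower at 6 h (log2 -1.24 ± 0.14, edgeR adjusted p = 2.05e-06) and 2.62-fold lower at 24 h (-1.39 ± 0.14, adjusted p = 5.5e-07).

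*ID4* differed from the other *ID* genes in direction at 6 h. It was at 6.05, 3.4 and 4.53 CPM in DMSO and 7.95, 7.59 and 6.94 CPM in NXP800 libraries at 6 h, and at 3.41, 1.95 and 2.51 against 3.7, 3.32 and 2.62 CPM at 24 h. All NXP800 libraries were higher at 6 h, and the groups overlapped at 24 h. *ID4* was 1.61-fold higher at 6 h (log2 0.68 ± 0.20, edgeR adjusted p = 0.00811), a call lost without DMSO replicate 2 (0.50, adjusted p = 0.0504), and its 24 h value of 0.29 ± 0.23 did not pass (adjusted p = 0.286). *SKIL*, which encodes the SMAD corepressor SnoN and is itself a TGF-beta target, rose by 0.82 ± 0.079 at 6 h (edgeR adjusted p = 3.22e-07) and by 0.73 ± 0.083 at 24 h (adjusted p = 1.63e-06).

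The response at 24 h differed from that at 6 h for 13 of the 44 members by edgeR's test of the difference itself. It was more positive at 24 h for 6 members, or 13.6%, against 12% of all tested genes, and more negative for 7, or 15.9%, against 13.8%, so the shares were near those of all genes. Over all genes the split was 1924 positive to 2205 negative, and 2463 to 1670 when counts were scaled by library size alone. The largest falls from 6 h to 24 h were in *FST*, with a difference of -3.01 ± 0.43 on the log2 scale (edgeR adjusted p = 0.000116), *INHBA* with -2.16 ± 0.23 (adjusted p = 7.3e-06), *TGFB2* with -2.14 ± 0.28 (adjusted p = 4.88e-05), *GREM1* with -1.41 ± 0.20 (adjusted p = 0.000108) and *TGFBR2* with -1.05 ± 0.11 (adjusted p = 7.06e-06). The other 2 were *TGFBR3* (-0.53 ± 0.18, adjusted p = 0.0413) and *LTBP2* (-0.46 ± 0.080, adjusted p = 0.000609), which fell further at 24 h. The *TGFBR3* difference lost its call with 8 of the 12 libraries left out in turn (-0.55 to -0.41) and with scaling by library size alone (-0.46). On the positive side stood *GDF6*, with a difference of 1.25 ± 0.25 (edgeR adjusted p = 0.00191) through its 24 h rise, and *BMP1* with 0.52 ± 0.10 (adjusted p = 0.00131). *BMP8B* (0.83 ± 0.18, adjusted p = 0.00266), *BMP7* (0.65 ± 0.20, adjusted p = 0.0269), *GDF11* (0.50 ± 0.15, adjusted p = 0.0241) and *BMPR1A* (0.44 ± 0.11, adjusted p = 0.00711) had fallen at 6 h and were less reduced or did not pass at 24 h. The difference was lost for *BMP7* with 7 of the 12 libraries left out in turn (0.56 to 0.62) and for *GDF11* with 5 (0.35 to 0.48). No SMAD or target gene differed between the times. With the replicate number as a block, 7 more differed and the more negative responses numbered 11: *TGFBR1* (-0.24, adjusted p = 0.0149), *SMAD3* (-0.18, 0.0374), *SMAD7* (-0.32, 0.00877) and *FSTL1* (-0.37, 0.000362) on the negative side, and *INHBB* (0.40, 0.00151), *SMAD6* (0.31, 0.0156) and *ID1* (0.58, 0.00218) on the positive side. Over all 15979 tested genes the block called more differences too, 2945 positive and 3339 negative, beside 1924 and 2205 in the main model.

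**Figure D4:**
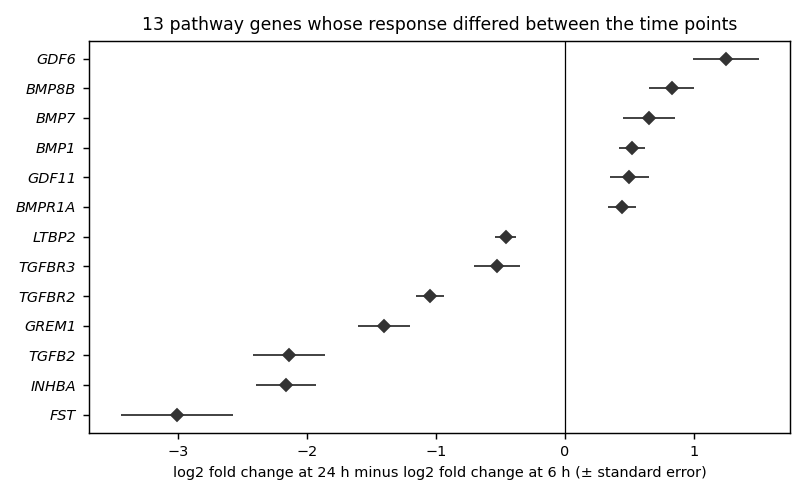
Log2 fold change at 24 h minus that at 6 h, with bars of 1 standard error, for the 13 genes in which edgeR's test of the difference passed at an adjusted p below 0.05. *FST*, *INHBA* and *TGFB2* lie beyond -2 and *GDF6* lies beyond 1.

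Beside the members, 97 other genes of the pathway were listed by role, and 63 passed the filter. Of these, 27 rose and 16 fell at 6 h, or 42.9% and 25.4% against 25% and 27.8% of all genes, and 24 rose and 19 fell at 24 h, or 38.1% and 30.2% against 27.5% and 28.6%, so the shares that fell were near those of all genes. The 15 tested TGF-beta targets counted 9 up and 3 down at 6 h (60% and 20%) and 6 up and 4 down at 24 h (40% and 26.7%). The 8 tested BMP targets counted 3 up and 2 down at 6 h (37.5% and 25%) and 5 up and 2 down at 24 h (62.5% and 25%). The 3 of these that rose at both times were the transcription factor genes *HEY1* (log2 1.43 and 1.35), *MSX2* (0.71 and 1.14) and *RUNX2* (0.71 and 0.36), and *ATOH8* fell at both (-1.54 and -1.73). These 4 and *INHBE* are named beyond the rule for the other pathway genes, after their values were seen. *ATOH8* was low, at means of 1.14 CPM in DMSO and 0.388 CPM in NXP800 libraries at 6 h. At 24 h its means were 1.04 and 0.31 CPM. The standard errors of its changes were 0.38 and 0.41. *INHBE*, a ligand gene under the rule's bound on level, had the largest rises of the 63 (log2 4.56 ± 0.42 and 5.79 ± 0.38). Its means rose from 0.0835 to 2.06 CPM at 6 h and from 0.0894 to 5.19 CPM at 24 h. *GDF15*, a distant family member that stress induces, rose from means of 11.2 to 129.5 CPM at 6 h and from 11.2 to 119 CPM at 24 h (log2 3.53 and 3.41). *CDKN1A*, the cell cycle inhibitor p21, rose by 2.17 and 1.72 on the log2 scale, and *TGIF1*, a SMAD corepressor, by 2.12 and 1.47. *CCN2*, a matrix protein and TGF-beta target, fell by 1.05 at 6 h and 1.84 at 24 h. *THBS1*, an activator of latent TGF-beta, fell by 0.83 at 6 h and 2.34 at 24 h, and *TGFBI*, a TGF-beta-induced matrix protein, by 0.40 and 1.47. *ENG*, the coreceptor endoglin, fell by 0.95 at 6 h and 0.94 at 24 h, and *NRROS*, which tethers latent TGF-beta on cells, fell by 1.18 at 6 h and did not pass at 24 h (-0.15, edgeR adjusted p = 0.329). All other changes named in this paragraph passed at an adjusted p of at most 0.00291 at 6 h and 0.00879 at 24 h.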

How the data were processed

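The authors trimmed reads with fastp 0.20.1, aligned them with STAR 2.7.5a to hg38 and deposited raw HTSeq 0.12.4 counts per RefSeq gene of GRCh38.p14, 1 table per library, without normalization. The library kit keeps strand, but the strand setting and counting mode are not given in the sources used here. Entries naming no gene (no feature 2.73 to 8.14%, ambiguous 2.1 to 2.43%, multiple 1.86 to 3.37%) were left out.

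The analysis used edgeR 4.0.16 and limma 3.58.1 in R 4.3.3. Of 43236 symbols, filterByExpr kept 15979. After TMM scaling (factors 0.918 to 1.05), 3 contrasts were tested by edgeR's quasi-likelihood method in 1 model of 4 groups, and p-values were adjusted by Benjamini-Hochberg over all tested genes, with calls below 0.05. The standard error is the log2 fold change divided by the square root of F. The script was tested on simulated data. With 30810614 to 31947656 counts per library, the spread between replicates (common dispersion 0.00723) limits the precision except for low genes. Replicates differed by more than sampling noise (chi-square per degree of freedom 7.36 to 26.3).

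Groups and replicate numbers come from the labels. Deviations from group means correlated at 0.159 to 0.329 between DMSO and NXP800 libraries of the same number and time. Between different numbers they correlated at 0.058 or less, though deviations within a group sum to 0, so these values are not independent. Libraries of the same number thus deviated together, but the labels state no pairing. The main model has no block, and a model with the number as a block was an alternative. Others were DESeq2 1.42.0 (its size factors and its Wald test), library size scaling, no filter or at least 10 counts in every library, each time point alone, a threshold of 0.01, *BMP8A* and *BMP8B* summed, and each library left out in turn. Values per library are given for members called beyond 2-fold at either time, called beyond 2-fold in the difference or called in opposite directions, plus 14 core genes. Of the other pathway genes, those named by rule are the 3 that rose most and the 3 that fell most at a time point. The rule asked for a log2 CPM averaging 1 or more. The members and lists were chosen with earlier results of these data known. Gene positions and promoters are from RefSeq on GRCh38.p14, and exon overlaps are from GENCODE, whose gene models may not be those used for counting. Protein sequences were not used here.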

Additional observations from a re-analysis of the deposited data

Results flagged for a closer look

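The response to NXP800 differed between 6 h and 24 h, by edgeR's quasi-likelihood test of the difference, for 13 members. The difference (24 h minus 6 h, log2) was -3.01 for *FST*, -2.16 for *INHBA*, -2.14 for *TGFB2*, -1.41 for *GREM1*, -1.05 for *TGFBR2*, -0.53 for *TGFBR3* and -0.46 for *LTBP2*. It was 1.25 for *GDF6*, 0.83 for *BMP8B*, 0.65 for *BMP7*, 0.52 for *BMP1*, 0.50 for *GDF11* and 0.44 for *BMPR1A*. For *FST*, *INHBA*, *TGFB2*, *TGFBR2*, *GREM1*, *GDF6*, *BMP1*, *BMP8B*, *BMPR1A* and *LTBP2*, the difference passed with each of the 12 libraries left out in turn.

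The other differences kept their sign with each library left out, at 0.56 to 0.78 for *BMP7*, 0.35 to 0.61 for *GDF11* and -0.62 to -0.41 for *TGFBR3*. For each of these the call was lost without some of the libraries. That of *BMP7* was lost without replicate 1 (0.56) or 2 (0.61) of DMSO and 2 (0.62) or 3 (0.56) of NXP800 at 6 h, and without DMSO replicate 2 (0.56) and NXP800 replicate 1 (0.60) or 3 (0.56) at 24 h. That of *GDF11* was lost without DMSO replicate 3 (0.48) or NXP800 replicate 2 (0.47) at 6 h and without DMSO replicate 1 (0.45) or 2 (0.48) or NXP800 replicate 3 (0.35) at 24 h. That of *TGFBR3* was lost with 8 of the 12 libraries left out in turn, replicates 1 (-0.46) and 3 (-0.53) of DMSO and 2 (-0.41) and 3 (-0.55) of NXP800 at 6 h, and 1 (-0.50) and 2 (-0.46) of DMSO and 2 (-0.51) and 3 (-0.51) of NXP800 at 24 h.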

How the results depend on the processing

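Counts of members called stayed within 1.5 times the reported ones under every alternative run except 2: members increased at 24 h were 9 in place of 15 at an adjusted p below 0.01, and members with a more negative response at 24 h were 11 in place of 7 with the replicate number as a block. Over all tested genes, more negative responses numbered 3339 in place of 2205 with that block. That block ended no member's call at 6 h or 24 h and added *GREM1* (0.17) and *LTBP3* (-0.29) at 6 h and *INHBA* (-0.27) at 24 h. With scaling by library size alone, values that had not passed changed sign at 24 h for *BMP8B* (0.012), *BMPR2* (0.051), *SMAD3* (0.067) and *SMAD7* (0.046), and the calls of *SMAD3* at 6 h (0.17), *INHBB* (-0.30) and *BMPR1A* (-0.10) at 24 h and the difference of *TGFBR3* (-0.46) were lost. Without the filter on low counts, *SMAD3* at 6 h and *BMPR1A*, *ACVR2A* and *SMAD5* at 24 h lost their calls. Among the 44 tested members, *GREM1* (0.20) and *LTBP3* (-0.30) at 6 h and the differences of *INHBB* (0.41), *FSTL1* (-0.35) and *ID1* (0.64) then gained one. Members decreased at 6 h were then 19 in place of 17, and more positive differences 9 in place of 6. Those counts also take in the 5 members under the filter, which are not listed by gene here. DESeq2's Wald test ended the calls of *TGFB3* at 6 h and *BMPR1A* at 24 h, its size factors that of *BMPR1A* at 24 h, and a fit of each time point alone those of *BMPR1A* and *ACVR2A* at 24 h. The *FSTL1* difference was called with DESeq2's size factors and Wald test (-0.37 and -0.38), and *LTBP3* at 6 h with that time point alone (-0.27). The causes were not tested.

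Leaving out 1 library turned the sign of values near 0 that had not passed, with ranges at 6 h of -0.015 to 0.066 for *BMP1* and -0.058 to 0.059 for *ACVR1B*. At 24 h they were -0.23 to 0.019 for *BMP7*, -0.21 to 0.0031 for *BMP8B*, -0.089 to 0.031 for *BMPR2*, -0.035 to 0.16 for *ACVR1B*, -0.070 to 0.012 for *SMAD3*, -0.14 to 0.048 for *SMAD7*, -0.12 to 0.67 for *SMAD9*, -0.96 to 0.017 for *FST*, -0.30 to 0.057 for *LTBP3* and -0.50 to 0.043 for *ID1*. It brought the difference between the times past the threshold for *TGFBR1* without DMSO replicate 2 at 6 h (-0.29) or NXP800 replicate 2 at 24 h (-0.28), and for *SMAD3* (-0.26) and *SMAD7* (-0.42) without NXP800 replicate 2 and replicate 1 at 24 h. The same held for *FSTL1* (-0.42 to -0.46 without NXP800 replicate 1 at 6 h, DMSO replicate 1, or NXP800 replicate 2 or 3 at 24 h) and for *ID1* without DMSO replicate 1 (0.78) or NXP800 replicate 2 (0.79) at 24 h. Low counts limit *TGFB3* and *SMAD9*, whose standard errors (0.35 to 0.39) were the largest of the 44, and the 5 genes under the filter.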
